A study of Mus musculus with 12 samples.

Results

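The genes described here carry the transforming growth factor β (TGFβ) signal from the cell surface to the nucleus, and were followed in mouse splenic B cells stimulated either with or without TGFβ. They are 10 genes of the 55536 in the count table, found by symbol through the GENCODE annotation: the receptors Tgfbr1 and Tgfbr2, the signal transducers Smad2, Smad3 and Smad4, the inhibitors Smad7, Ski and Skil, and the SMAD partners Runx1 and Runx3. All 10 passed the filter on low counts in every comparison, with 62 to 24093 reads in a library. RNA-seq was performed on 12 libraries from 6 C57BL/6 mice, 3 control mice and 3 mice with floxed Pdap1 alleles and a B lineage Cre (Pdap1-deficient). The splenic B cells of every mouse were split over 2 stimulations and harvested after 48 h. LPS-IL-4 directs class switching to IgG1, and LPS-BAFF-TGFβ directs it to IgG2b. Both contained LPS (5 µg/ml). IL-4 (5 ng/ml) was present only in the first, and BAFF (10 ng/ml) together with TGFβ (2 ng/ml) only in the second. Deletion of the floxed exon 2 of Pdap1 is limited to the B lineage, and the controls carry the same Cre allele. The mice of the study were 7 to 27 wk old and of both sexes. IL-4, BAFF and TGFβ all differed between the cultures, so their effects cannot be told apart.

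TGFβ binds TGFBR2, which recruits and phosphorylates TGFBR1. The active TGFBR1 kinase phosphorylates SMAD2 and SMAD3, which enter the nucleus with SMAD4 and bind DNA together with partners such as RUNX proteins. SMAD7 blocks the receptor, whereas SKI and SKIL repress SMAD-bound genes. In B cells TGFβ is known for directing class switching to IgA and, in the mouse, to IgG2b.

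The upstream promoter bases are shown for the receptors and SMAD genes that moved between cultures in both genotypes and for Runx3, as far as RefSeq sequences could be printed. Each run holds the 250 bases before the RefSeq start on GRCm38.p6, in 5′ to 3′ direction of the gene. Capitals mark the SMAD-binding motif CAGAC and the RUNX motifs TGTGGT and TGCGGT on either strand, which do not overlap each other in these windows. The windows are chr4:47352972-47353221 on the plus strand for Tgfbr1, chr9:116175364-116175613 on the minus strand for Tgfbr2, chr9:63757995-63758244 on the minus strand for Smad3 and chr4:135120395-135120644 on the plus strand for Runx3, the first of 2 start sites being used for Tgfbr1 and Runx3.
Tgfbr1: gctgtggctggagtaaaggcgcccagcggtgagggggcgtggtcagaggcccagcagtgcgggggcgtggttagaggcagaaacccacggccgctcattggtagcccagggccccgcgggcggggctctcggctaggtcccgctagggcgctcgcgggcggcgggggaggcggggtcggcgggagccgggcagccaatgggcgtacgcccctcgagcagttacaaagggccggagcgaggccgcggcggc
Tgfbr2: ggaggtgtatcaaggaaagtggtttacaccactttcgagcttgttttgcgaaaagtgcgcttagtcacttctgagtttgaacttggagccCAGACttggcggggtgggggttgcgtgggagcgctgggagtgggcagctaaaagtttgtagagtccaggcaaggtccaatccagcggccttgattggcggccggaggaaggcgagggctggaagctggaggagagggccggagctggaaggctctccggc
Smad3: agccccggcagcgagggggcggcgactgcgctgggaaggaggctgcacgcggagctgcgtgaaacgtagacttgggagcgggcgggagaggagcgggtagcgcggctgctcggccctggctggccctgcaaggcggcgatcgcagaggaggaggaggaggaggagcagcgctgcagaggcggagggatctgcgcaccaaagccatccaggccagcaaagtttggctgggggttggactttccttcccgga
Runx3: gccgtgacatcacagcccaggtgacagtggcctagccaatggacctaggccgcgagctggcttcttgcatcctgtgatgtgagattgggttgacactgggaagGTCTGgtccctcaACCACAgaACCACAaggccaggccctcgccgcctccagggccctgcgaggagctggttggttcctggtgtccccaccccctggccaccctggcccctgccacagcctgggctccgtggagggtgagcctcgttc
The Tgfbr2 window held 1 CAGAC match, and the Runx3 window held 1 CAGAC match on the opposite strand and 2 RUNX matches. CAGAC occurred in 42.2% of 32817 promoter windows of the same length, and either RUNX motif in 18.6%. The second start sites of Tgfbr1 and Runx3, not printed, held 1 CAGAC match each and no RUNX match. The printed Tgfbr1 window and the Smad3 window held none of these letters, which says nothing of binding by SMAD or RUNX proteins.

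Total counts were 9386667 to 15869143 for the LPS-IL-4 libraries and 4579793 to 8303482 for 5 of the LPS-BAFF-TGFβ libraries, while that of control mouse 1 held 69500640. Levels below are CPM, counts scaled to TMM-adjusted library totals, and levels are compared between genes only after division by exon length in kilobases. Pdap1 was at 80.3 to 199 CPM in the control libraries and 23.0 to 29.9 CPM in the Pdap1-deficient ones, so no library went against its genotype label. The stimulation labels held as well, since Ighg2b was at 539.9 to 639 CPM with LPS-BAFF-TGFβ and 5.99 to 23.5 CPM with LPS-IL-4. Ighg1 was at 1.70 to 6.40 CPM and 129 to 418 CPM. Igha did not separate the cultures in Pdap1-deficient mice, at 3.23 to 34.5 CPM with LPS-BAFF-TGFβ and 0.156 to 48.8 CPM with LPS-IL-4. All 10 B cell markers were detected in every library. Their sum was 5089 to 5607 CPM with LPS-IL-4 and lower, 4124 to 4528 CPM, with LPS-BAFF-TGFβ. Single markers moved in either direction. Cd79b was at 579 to 681 CPM with LPS-IL-4 and 240 to 268 CPM with LPS-BAFF-TGFβ. Cr2 was at 45.9 to 56.1 CPM and 278 to 397 CPM. Pdap1-deficient mouse 2 stood apart in myeloid markers, whose sum was 337 CPM with LPS-IL-4 and 566 CPM with LPS-BAFF-TGFβ. That sum was 5.22 to 13.8 CPM and 16.6 to 25.0 CPM in the control libraries of the 2 cultures, and 7.002 and 34.6 CPM, then 11.9 and 79.1 CPM, in the other Pdap1-deficient libraries. In mouse 2 with LPS-IL-4, 10 of 10 myeloid markers exceeded every control library, and with LPS-BAFF-TGFβ 9 of 10 did. Mpo was at 0 in 10 of the 12 libraries and Fcgr1 in 8. T cell, natural killer, erythroid and platelet markers summed to at most 47.1, 4.44, 23.7 and 7.18 CPM, and 3 of 6 stromal markers (Col1a2, Col3a1 and Pdgfra) were at 0 in all libraries. Other sums moved with the culture as well. The stromal sum, nearly all of it Pecam1, was 58.6 to 116 CPM with LPS-IL-4 and 114 to 135 CPM with LPS-BAFF-TGFβ. The dendritic sum was 22.6 to 33.8 CPM and 75.6 to 144 CPM, mostly Flt3, with Clec9a at 0 in all libraries, and the plasmablast sum 622 to 892 CPM and 449 to 527 CPM. Some sums also parted by genotype without overlap. With LPS-IL-4 the plasmablast sum was 622 to 674 CPM in control and 747 to 892 CPM in Pdap1-deficient libraries. The stromal sum was 58.6 to 66.8 and 71.7 to 116 CPM. With LPS-BAFF-TGFβ the dendritic sum was 125 to 144 CPM in control and 75.6 to 111 CPM in Pdap1-deficient libraries. The erythroid sum was 9.79 to 10.7 and 11.3 to 20.2 CPM. The part of these markers in the differences between cultures or genotypes was not tested.

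The 10 genes lie on chromosomes 4 (Tgfbr1, Ski and Runx3), 9 (Tgfbr2 and Smad3), 18 (Smad2, Smad4 and Smad7), 3 (Skil) and 16 (Runx1). Per kilobase of exon, Skil was the most abundant of the 10 genes in all 4 groups, at 24.6 ± 1.42 CPM per kb in control cells with LPS-IL-4 (SD, n = 3) and 50.8 ± 9.87 with LPS-BAFF-TGFβ. In control cells with LPS-IL-4, Smad4 (17.5 ± 1.71 CPM per kb) and Smad2 (16.6 ± 0.749) came next and their libraries overlapped. They were followed without overlap by Tgfbr2 (10.2 ± 0.550 CPM per kb), Tgfbr1 (7.94 ± 0.380), Runx3 (6.24 ± 0.491), Smad3 (5.27 ± 0.219), Runx1 (4.61 ± 0.181), Ski (3.05 ± 0.348) and Smad7 (1.67 ± 0.281). With LPS-BAFF-TGFβ the order in control cells differed. Tgfbr2 (25.8 ± 1.22 CPM per kb) stood second and Tgfbr1 (17.3 ± 3.06) next, above Smad4 (14.6 ± 2.23), Smad2 (13.8 ± 2.16) and Runx3 (11.8 ± 4.46), although the libraries of neighbours from Tgfbr1 to Runx3 overlapped. Smad7 (5.51 ± 1.69 CPM per kb) had moved from last to seventh, next to Runx1 (4.24 ± 0.326) with overlapping libraries, and Smad3 (2.04 ± 0.114) from seventh to last.

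**Figure D1:**
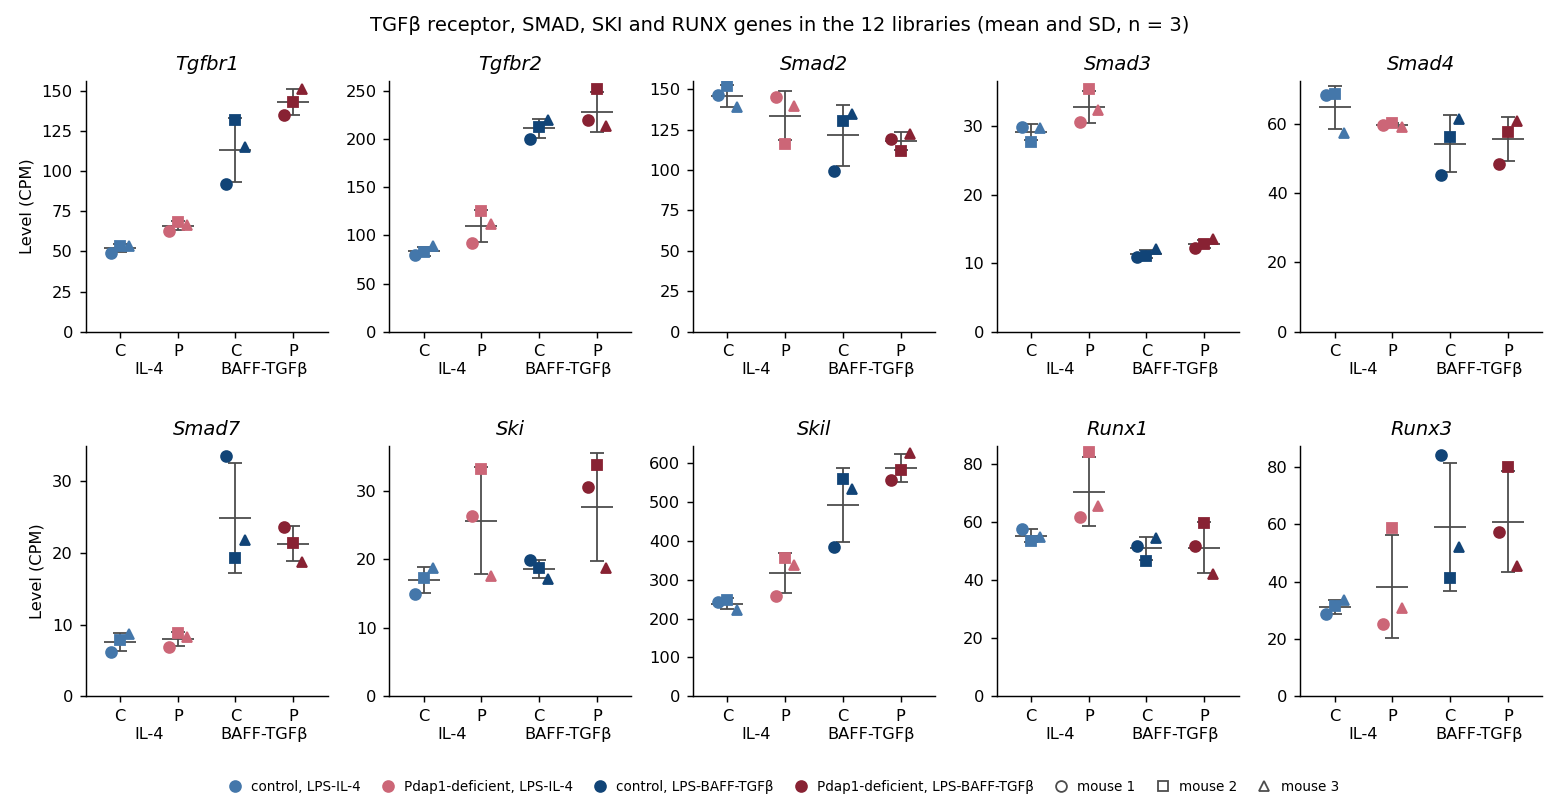
Level in CPM (y axis, from 0) of each of the 10 genes in every library, with control (C) and Pdap1-deficient (P) mice in each culture. Symbols mark the mouse, and the horizontal line and bars give the mean and SD of 3 mice. Tgfbr1, Tgfbr2, Smad7 and Skil lay higher in every LPS-BAFF-TGFβ library than in every LPS-IL-4 library of the same genotype, and Smad3 lay lower.

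The comparison of the cultures asked which parts of the pathway differed where TGFβ was given. In control cells Tgfbr1, Tgfbr2, Smad7, Skil and Runx3 were higher and Smad3 was lower with LPS-BAFF-TGFβ, while Smad2, Smad4, Ski and Runx1 did not pass the test. In Pdap1-deficient cells Tgfbr1, Tgfbr2, Smad7 and Skil were higher and Smad3 was lower. Thus 5 of 10 genes rose and 1 fell in control cells, where 9.99% of 14882 tested genes rose and 9.33% fell (edgeR quasi-likelihood test, adjusted p under 0.05). In Pdap1-deficient cells 4 rose and 1 fell, against 5.57% and 5.89% of 14617 tested genes. The median log2 difference of the 10 genes was 0.54 in control and 0.38 in Pdap1-deficient cells, beside 0.03 and -0.003 over all tested genes. In these bulk libraries fewer cells of a type and less RNA per cell cannot be told apart. Each mouse was taken to have given a library to both cultures. The libraries were paired by replicate number, and the data do not show this pairing in control mice. The values with the mouse as a block are given where they change the call of a named gene.

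Among the receptors, Tgfbr2, the ligand-binding chain, was at 80.0, 82.3 and 88.7 CPM in control mice 1 to 3 with LPS-IL-4 and at 201, 213 and 220.4 CPM with LPS-BAFF-TGFβ. The groups were far apart, and the log2 difference was 1.34 (SE 0.09, adjusted p = 3.09e-05, edgeR), a 2.53-fold rise. In Pdap1-deficient mice Tgfbr2 was at 92.2, 125 and 112 CPM with LPS-IL-4 and 219.7, 252 and 213 CPM with LPS-BAFF-TGFβ. The groups again did not overlap, with a log2 difference of 1.06 (SE 0.13, adjusted p = 0.000789). Tgfbr1, the kinase that phosphorylates the SMADs, was at 49.0, 53.3 and 53.3 CPM in control mice with LPS-IL-4 and 92.3, 132 and 115 CPM with LPS-BAFF-TGFβ. Its lowest LPS-BAFF-TGFβ value was that of the deepest library, and the log2 difference was 1.12 (SE 0.14, adjusted p = 0.000839). In Pdap1-deficient mice Tgfbr1 was at 62.9, 68.3 and 66.6 CPM against 135, 143 and 151 CPM, every LPS-BAFF-TGFβ library being above every LPS-IL-4 library. The log2 difference was again 1.12 (SE 0.10, adjusted p = 9.31e-05). The ratio of Tgfbr2 to Tgfbr1 per kilobase ranged from 1.13 to 1.74 over the 12 libraries and overlapped between the cultures in both genotypes.

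The receptor-regulated SMADs parted. Smad3 was at 30.0, 27.8 and 29.8 CPM in control mice with LPS-IL-4 and at 10.9, 11.1 and 12.1 CPM with LPS-BAFF-TGFβ. These values formed tight, separate groups, and Smad3 fell by 1.37 on the log2 scale (SE 0.12, adjusted p = 0.000122, edgeR). In Pdap1-deficient mice it was at 30.7, 35.4 and 32.5 CPM against 12.3, 12.8 and 13.5 CPM, and fell by 1.35 (SE 0.13, adjusted p = 0.000168). Smad3 was lower with LPS-BAFF-TGFβ in all 6 mice, with differences of -1.46 to -1.26 on the log2 CPM scale. Smad2, the other receptor-regulated transducer of TGFβ, was at 146, 152 and 139 CPM in control mice with LPS-IL-4 and 99.6, 130.2 and 134 CPM with LPS-BAFF-TGFβ. Every LPS-BAFF-TGFβ library was below every LPS-IL-4 library, but the log2 difference of -0.26 did not pass the test (SE 0.13, adjusted p = 0.2005). In Pdap1-deficient mice Smad2 was at 145, 116 and 139 CPM against 119, 112 and 122 CPM, groups that overlapped (log2 difference -0.18, SE 0.11, adjusted p = 0.391). The ratio of Smad2 to Smad3 per kilobase was 2.94 to 3.45 in control mice with LPS-IL-4 and 5.78 to 7.42 with LPS-BAFF-TGFβ. In Pdap1-deficient mice it was 2.07 to 2.99 and 5.52 to 6.15. The ratio was higher in each LPS-BAFF-TGFβ library than in any LPS-IL-4 library. Smad4, the shared partner, was at 68.3, 68.6 and 57.5 CPM in control mice with LPS-IL-4 and 45.2, 56.3 and 61.4 CPM with LPS-BAFF-TGFβ. The groups overlapped, as did those of the Pdap1-deficient mice at 59.6, 60.4 and 59.1 CPM against 48.5, 57.6 and 61.0 CPM. The log2 differences were -0.26 (SE 0.14, adjusted p = 0.251) and -0.10 (SE 0.12, adjusted p = 0.687).

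**Figure D2:**
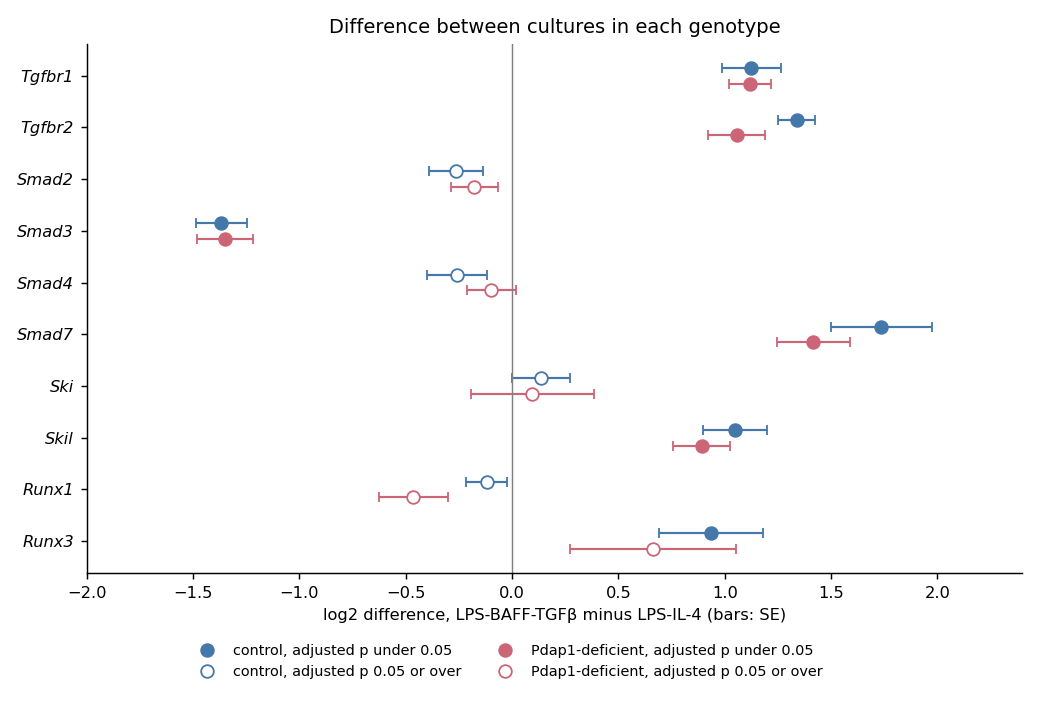
Log2 difference (x axis, LPS-BAFF-TGFβ minus LPS-IL-4) of each gene in control (blue) and Pdap1-deficient (red) cells, with SE bars; filled points have an adjusted p under 0.05. Smad3 lies near -1.4 in both genotypes, Tgfbr1, Tgfbr2, Smad7 and Skil between 0.89 and 1.74, and only Runx3 is filled in 1 genotype alone.

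The inhibitors differed among themselves. Smad7, which sits on the receptor and blocks SMAD phosphorylation, was at 6.18, 7.82 and 8.67 CPM in control mice with LPS-IL-4 and 33.6, 19.3 and 21.8 CPM with LPS-BAFF-TGFβ. Its highest value came from the deepest library, and the groups did not overlap (log2 difference 1.74, SE 0.24, adjusted p = 0.00146, edgeR). Without both libraries of control mouse 1 the difference was 1.33. In Pdap1-deficient mice Smad7 was at 6.85, 8.82 and 8.25 CPM against 23.7, 21.5 and 18.8 CPM, with a log2 difference of 1.42 (SE 0.17, adjusted p = 0.000649). Skil, a nuclear corepressor of SMAD complexes, was at 243, 249 and 223 CPM in control mice with LPS-IL-4 and 383, 560.1 and 534 CPM with LPS-BAFF-TGFβ. All values of the second culture were higher, the lowest again being that of the deepest library (log2 difference 1.05, SE 0.15, adjusted p = 0.00188). In Pdap1-deficient mice Skil was at 259, 355 and 337 CPM against 556, 582 and 625 CPM, a log2 difference of 0.89 (SE 0.13, adjusted p = 0.00228). Ski, its paralog, was at 14.9, 17.3 and 18.7 CPM in control mice with LPS-IL-4 and 19.8, 18.7 and 17.2 CPM with LPS-BAFF-TGFβ. These groups overlapped (log2 difference 0.14, SE 0.14, adjusted p = 0.543). In Pdap1-deficient mice Ski was at 26.2, 33.1 and 17.6 CPM and then 30.5, 33.7 and 18.6 CPM. Mice 1 and 2 were above every control library in both cultures while mouse 3 lay within the control range, and the difference between cultures did not pass the test (0.10, SE 0.29, adjusted p = 0.895).

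The RUNX partners, which bind DNA with SMADs, gave the least settled values. Runx3 was at 28.7, 31.5 and 33.6 CPM in control mice with LPS-IL-4 and 84.2, 41.2 and 52.1 CPM with LPS-BAFF-TGFβ. The groups did not overlap, but the highest value, that of the deepest library, was well above the others (log2 difference 0.93, SE 0.25, adjusted p = 0.0365, edgeR). With the mouse as a block the difference was 0.87 and no longer passed the test (adjusted p = 0.0645), so that 4 of 10 genes rose and 1 fell, against 6.99% and 6.38% of tested genes. Without both libraries of control mouse 1 it was 0.54 (adjusted p = 0.00450). Over 14 other settings Runx3 passed the test in control cells in 7. In Pdap1-deficient mice Runx3 was at 25.2, 58.6 and 30.9 CPM with LPS-IL-4 and 57.4, 79.9 and 45.5 CPM with LPS-BAFF-TGFβ, groups that overlapped. The highest value in each culture was that of mouse 2, the mouse with the high myeloid marker sum, whose part in these values was not tested. The log2 difference was 0.66 (SE 0.39, adjusted p = 0.393). With the mouse as a block it was 0.72 (adjusted p = 0.00199), and without both libraries of mouse 2 it was 0.88 (adjusted p = 0.00159). Runx3 was higher with LPS-BAFF-TGFβ in 6 of 6 mice, by 0.39 to 1.55 on the log2 CPM scale.

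Runx1 was at 57.7, 53.4 and 55.1 CPM in control mice with LPS-IL-4 and 51.8, 46.7 and 54.4 CPM with LPS-BAFF-TGFβ. The groups overlapped (log2 difference -0.12, SE 0.10, adjusted p = 0.4499, edgeR). In Pdap1-deficient mice it was at 61.9, 84.3 and 65.7 CPM against 51.9, 59.7 and 42.3 CPM. Every LPS-BAFF-TGFβ library was lower, but the log2 difference of -0.46 did not pass the test (SE 0.16, adjusted p = 0.108). With the mouse as a block it did (-0.46, adjusted p = 0.00117), as it did without both libraries of mouse 2 (-0.44, adjusted p = 0.0339). Both of these fits called 7 of the 10 genes in Pdap1-deficient cells, 5 up and 2 down. The block fit called 12.8% of all tested genes up and 13.5% down, and the fit without mouse 2 called 8.21% and 8.31%. Of the exon bases of Runx1, 0.881% lie opposite exons of the antisense gene Gm26626.

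**Figure D3:**
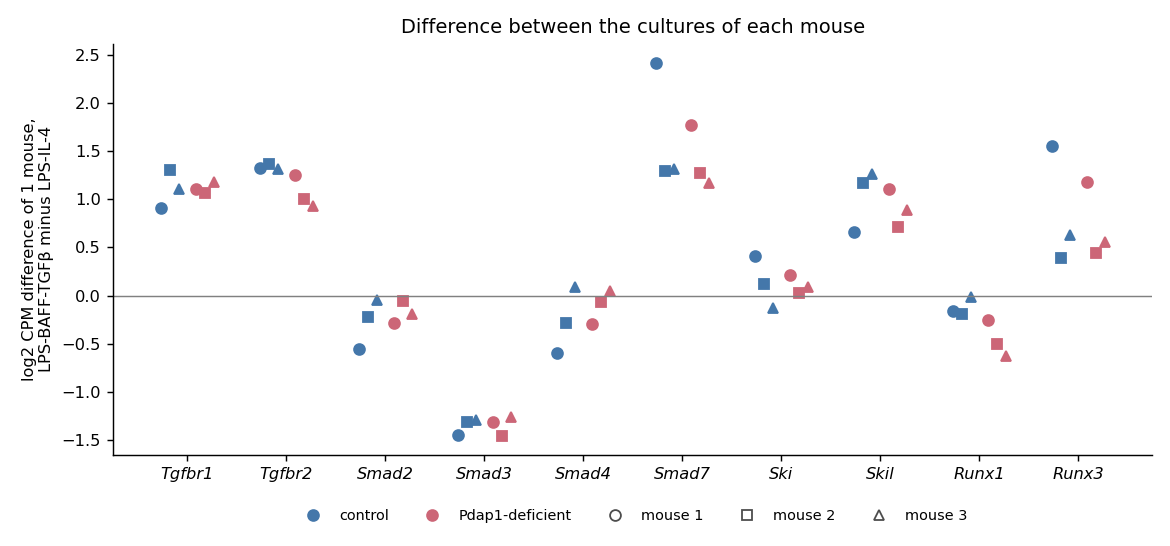
Log2 CPM difference between the 2 cultures of the same mouse (y axis, LPS-BAFF-TGFβ minus LPS-IL-4), 1 point for each of 3 control (blue) and 3 Pdap1-deficient (red) mice. Cultures were paired by replicate number, which the data do not show in control mice. Tgfbr1, Tgfbr2, Smad7, Skil and Runx3 lie above 0 in all 6 mice, and Smad2, Smad3 and Runx1 lie below 0 in all 6.

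Whether the loss of Pdap1 changed these differences was tested in a fit of all 12 libraries. None of the 10 genes passed (edgeR, adjusted p of 0.983 or more), and 0 of 15794 tested genes did, which is 0%, while 755 had an unadjusted p under 0.05 and the Wald test of DESeq2 called 6. The largest estimates, as the stimulation difference in Pdap1-deficient minus that in control cells, were -0.35 for Runx1 (SE 0.20), -0.32 for Smad7 (SE 0.30) and -0.28 for Tgfbr2 (SE 0.16). Over the other settings the estimate of Smad7 was -0.47 to 0.100, while those of Runx1 and Tgfbr2 stayed negative. For Tgfbr1 the estimate was within 0.01 of 0 (SE 0.17), and for Smad3 it was 0.02 (SE 0.16). Such a p does not show that the genotypes responded alike.

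The genotypes were then compared within each culture. With LPS-IL-4, 8 of 10 genes had a positive difference (Pdap1-deficient minus control) and none passed the test, against 4.92% of 15074 tested genes called in either direction (edgeR). An unadjusted p under 0.05 was reached by 5 of the 10 genes, and by 3582 of the 15074 tested genes. The DESeq2 test called 1 of the 10, Skil, and it called more genes in all than edgeR did. The median log2 difference of the 10 genes was 0.31, beside 0.02 over all tested genes. Tgfbr1, Tgfbr2, Smad3, Skil and Runx1 were higher in every Pdap1-deficient than in every control library, 5 of 10 genes, where 15.5% of tested genes were. The differences were 0.34 for Tgfbr1 (SE 0.10, adjusted p = 0.0711), 0.38 for Tgfbr2 (SE 0.12, adjusted p = 0.0861), 0.40 for Skil (SE 0.12, adjusted p = 0.0879) and 0.34 for Runx1 (SE 0.12, adjusted p = 0.126). Ski had the largest estimate, 0.59 (SE 0.20, adjusted p = 0.113), with mouse 3 inside the control range. Smad2 (-0.14, SE 0.11, adjusted p = 0.508) and Smad4 (-0.13, SE 0.11, adjusted p = 0.495) had small negative values, and Smad7 was at 0.07 (SE 0.19, adjusted p = 0.867).

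For Tgfbr1, Tgfbr2, Smad3, Smad7, Ski, Skil, Runx1 and Runx3 the highest LPS-IL-4 value was that of Pdap1-deficient mouse 2, in which the myeloid marker sum was also highest, and the part of these markers was not tested. Without that library Tgfbr1 kept a difference of 0.33 and passed the test (adjusted p = 0.0373), 1 gene of 10 where 5.09% of tested genes were called higher. Tgfbr2 was then at 0.29 (adjusted p = 0.0630), Skil at 0.33 (adjusted p = 0.0688), Ski at 0.39 (adjusted p = 0.179) and Runx1 at 0.21 (adjusted p = 0.170). Runx3 changed from 0.28 (SE 0.29) to -0.15 (adjusted p = 0.488).

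With LPS-BAFF-TGFβ none of the 10 genes passed the test, and 0.462% of 14079 tested genes did. Pdap1 itself was not called in this fit, at a log2 difference of -2.33, whereas it was with LPS-IL-4 (-1.82). The lack of a call in this culture therefore does not show that a gene was unchanged. An unadjusted p under 0.05 was reached by 2 of the 10 genes, and by 1486 of the 14079 tested genes. The 2 were Ski (0.57, SE 0.22, adjusted p = 0.421, edgeR) and Tgfbr1 (0.35, SE 0.14, adjusted p = 0.444), and DESeq2 called 0 of the 10. Tgfbr1 was above every control library in every Pdap1-deficient library, and so was Smad3 (0.19, SE 0.17, adjusted p = 0.674), 2 of 10 genes where 9.55% of tested genes were. The estimate of Tgfbr1 was 0.21 without the deepest library. Skil was at 0.26 (SE 0.16), 0.10 without the deepest library, and Tgfbr2 at 0.12 (SE 0.11). Smad7 was at -0.23 (SE 0.22) with the deepest library and 0.05 without it. Smad2, Smad4, Runx1 and Runx3 were within 0.05 of 0 (SE 0.14 to 0.32). The stimulation and genotype comparisons share libraries and are not independent of each other.

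**Figure D4:**
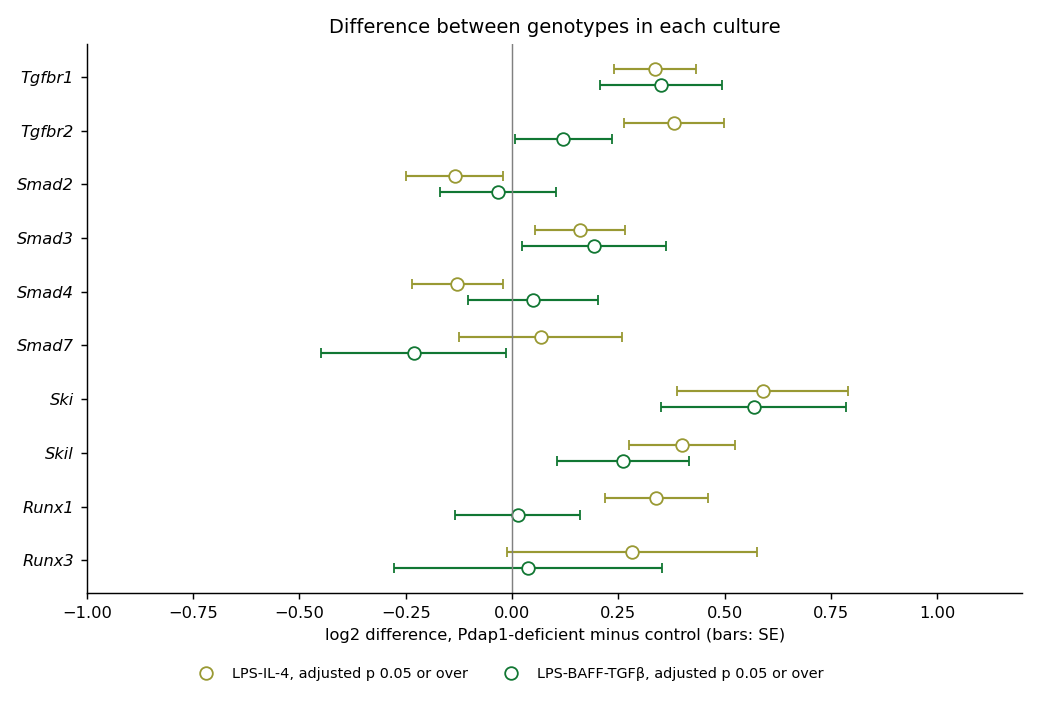
Log2 difference between genotypes (x axis, Pdap1-deficient minus control) of each gene with LPS-IL-4 (olive) and LPS-BAFF-TGFβ (green), with SE bars. All points are open, since no adjusted p was under 0.05, and the estimates lie between -0.23 and 0.59.

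The other genes of the pathway were read from 6 lists of 85 genes in all, of which 61 were tested in control and 63 in Pdap1-deficient cells. With LPS-BAFF-TGFβ, 12 rose and 7 fell in control cells and 8 rose and 6 fell in Pdap1-deficient cells. Of all tested genes 9.99% rose and 9.33% fell in control cells, and 5.57% and 5.89% in Pdap1-deficient cells. The medians of the lists' log2 differences were 0.06 and -0.01, beside 0.03 and -0.003 over all tested genes. With the mouse as a block, 9 rose and 4 fell in control cells and 13 rose and 10 fell in Pdap1-deficient cells. The shares of all tested genes were then 6.99% up and 6.38% down in control, and 12.8% and 13.5% in Pdap1-deficient cells. Without both libraries of control mouse 1, 19 rose and 7 fell in control cells, where 14.1% and 13.3% of all tested genes did. Of the ligand and activation list, 6 of 14 genes were tested. Nrros and Lrrc32, which tether latent TGFβ at the cell surface, fell in both genotypes, Nrros by 1.77 and 1.44 and Lrrc32 by 0.69 and 1.22 in control and Pdap1-deficient cells. Tgfb1, a gene of the ligand itself, rose by 0.63 in control cells (adjusted p = 0.0247, edgeR) and was at 0.26 in Pdap1-deficient cells (adjusted p = 0.485). Furin, whose protease matures the TGFβ precursor, rose by 1.13 in control cells and was at 0.46 (adjusted p = 0.554) in Pdap1-deficient cells, where mouse 2 had the highest values. With the mouse as a block, the calls of Lrrc32 (adjusted p = 0.0534) and Tgfb1 (adjusted p = 0.0593) in control cells were lost, and Tgfb1 (0.26, adjusted p = 0.0371) and Furin (0.54, adjusted p = 0.00630) passed in Pdap1-deficient cells. Furin also passed there without both libraries of mouse 2.

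Among other receptors, Acvr1b, an activin type I receptor that also acts through SMAD2 and SMAD3, rose by 1.18 in control and 0.65 in Pdap1-deficient cells (adjusted p = 0.00115 and 0.0391, edgeR). It was 1 of 6 and 1 of 7 tested genes of its list. Tgfbr3, the coreceptor betaglycan, was at 0 to 0.826 CPM in all libraries. Of the SMADs of bone morphogenetic protein signalling, Smad1 fell by 0.75 in control and 0.98 in Pdap1-deficient cells (adjusted p = 0.0424 and 0.0383), losing the call in control cells with the mouse as a block (adjusted p = 0.0979) and in Pdap1-deficient cells without mouse 2 (adjusted p = 0.0626). Smad5 did not pass (-0.36 and -0.09). The inhibitory Smad6 was at 0.826 CPM or less.

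Of the regulators, 4 of 18 tested genes rose in control and 3 of 18 in Pdap1-deficient cells, and none fell, beside the 9.99% and 5.57% of all tested genes that rose. Ldlrad4, which keeps SMAD2 and SMAD3 from the receptor, had the largest rise. It was at 1.32, 0.540 and 0.964 CPM in control mice with LPS-IL-4 and 17.1, 12.04 and 13.03 CPM with LPS-BAFF-TGFβ. The groups did not overlap, and the log2 difference was 3.89 (SE 0.30, adjusted p = 6.93e-05, edgeR). In Pdap1-deficient cells it was 3.11 (SE 0.22, adjusted p = 2.72e-05). Pmepa1, a related inhibitor, rose by 0.79 in control cells (adjusted p = 0.00123) and was at 0.45 in Pdap1-deficient cells (adjusted p = 0.122). In Pdap1-deficient mouse 2 it was at 60.0 CPM with LPS-IL-4 and 58.6 CPM with LPS-BAFF-TGFβ. Without both libraries of that mouse Pmepa1 passed the test as higher in Pdap1-deficient cells. With the mouse as a block it did not. Nedd4l, a ubiquitin ligase of SMADs, rose by 0.86 and 0.57, and Usp11, a deubiquitinase of the pathway, by 0.76 and 0.47.

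Of the nuclear partners, Zeb2, a SMAD-binding repressor, fell by 0.79 in control and 1.06 in Pdap1-deficient cells. Its relative Zeb1 was at 0.39 in control cells (adjusted p = 0.0509, edgeR) and rose by 0.44 in Pdap1-deficient cells (adjusted p = 0.0115). Cbfb, the RUNX cofactor, was at -0.27 and -0.09 (adjusted p = 0.252 and 0.801), Tgif1 at 0.06 and -0.01 (adjusted p = 0.711 and 0.972), and Runx2 at 3.10 CPM or less. Of the TGFβ responsive list, 5 rose and 3 fell of 12 tested genes in control cells, and 3 rose and 2 fell of 13 in Pdap1-deficient cells, beside 9.99% up and 9.33% down, and 5.57% up and 5.89% down, of all tested genes. The order of the genotypes turned with the mouse as a block, with 3 up and 2 down in control and 4 up and 5 down in Pdap1-deficient cells. It turned in the same way over all tested genes, with 6.99% up and 6.38% down in control and 12.8% and 13.5% in Pdap1-deficient cells. Bhlhe40 rose by 2.01 and 1.56, Id2 by 1.18 and 1.12, and Id3 by 1.42 and 1.45, whereas Bcl2l11, which encodes the proapoptotic protein BIM, fell by 1.89 and 1.14. Klf10 rose by 0.62 and Myc fell by 0.46 in control cells, and were at 0.13 and -0.32 in Pdap1-deficient cells (adjusted p = 0.735 and 0.295). Neither passed in control cells with the mouse as a block (adjusted p = 0.0667 and 0.0547), and Myc fell by 0.32 in Pdap1-deficient cells (adjusted p = 0.0104). Without Pdap1-deficient mouse 2, Id2 was at 1.15 and no longer passed there (adjusted p = 0.121). Cdkn2b, at 0.413 to 4.12 CPM over the libraries, fell by 2.09 in Pdap1-deficient cells and was at -0.37 in control cells (adjusted p = 0.425). The difference of these stimulation differences between genotypes did not pass for any gene. Id1, a widely used target of the pathway in other cell types, was at 0.413 CPM or less.

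**Figure D5:**
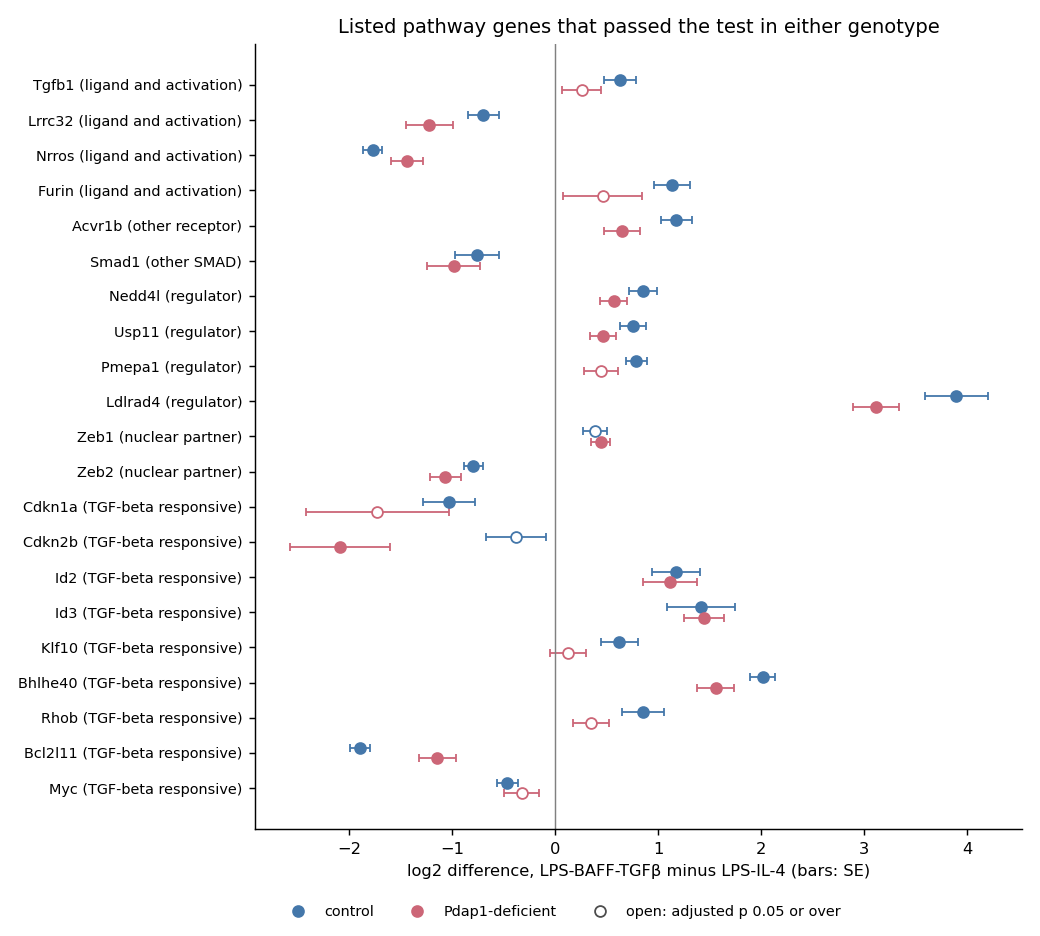
Log2 difference (x axis, LPS-BAFF-TGFβ minus LPS-IL-4, SE bars) of the 21 listed pathway genes whose adjusted p was under 0.05 in control (blue) or Pdap1-deficient (red) cells, with the list in parentheses. Ldlrad4 has the largest rise in both genotypes, and Nrros, Zeb2 and Bcl2l11 lie below 0 in both.

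Between genotypes with LPS-IL-4, 4 of 63 tested genes of these lists rose and none fell, against 4.92% of all tested genes called. They were Zeb2 (0.86, adjusted p = 0.00214, edgeR), Rhob (0.97, adjusted p = 0.0176), Bhlhe40 (0.76, adjusted p = 0.0253) and Acvr1b (0.69, adjusted p = 0.0477). Zeb2 was at 152, 144 and 135 CPM in control mice and 239.6, 289 and 258 CPM in Pdap1-deficient mice, with no overlap. All 4 were called as well without Pdap1-deficient mouse 2, where 9 of the listed genes rose and 4 fell, beside 5.09% and 4.49% of all tested genes. With LPS-BAFF-TGFβ none of the 60 tested genes passed, in the fit that did not call Pdap1 either.

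For the 5 genes that moved in both genotypes, the genes of nearest pattern were found among 15794, as the smallest root mean square difference of log2 CPM, each centred on its mean over the 12 libraries. Smad3 was nearest to the B cell receptor chain gene Cd79b, at 0.070 log2 units, then to Arap2 and Alpl. Tgfbr2 was nearest to Snx18 (0.083), Sesn3 and Dhx57. Tgfbr1 was nearest to Ccni (0.101), Lnpep and Bcor, and Skil to Lnpep (0.105), Ccni and the unclassified gene Gm37902. Smad7 had more distant neighbours, Bin1 (0.169), Akap12 and Dennd3. The distances describe these 12 libraries, which share 2 cultures, and carry no test.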

How the data were processed

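RNA-seq counts were available for 12 cultures, from 3 mice of each genotype under 2 stimulations. The study describes primary B cells isolated with anti-CD43 beads, whereas a cell line field of the labels names CH12. It states a ribosomal RNA-depleted total RNA kit, whereas the labels name a stranded mRNA kit. Per the labels and methods, reads were trimmed with Trim Galore 0.6.1, mapped to GRCm38 with STAR 2.6 and counted per gene with HTSeq 0.9.1. The use of strand in counting is not given in the sources used here. The values used are the deposited raw counts per Ensembl gene. A second deposited table of normalized values was not used. All 12 sample columns were mapped by name to the labels (0 left unmapped), and gene symbols came from GENCODE M21.

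Counts were tested with the quasi-likelihood test of edgeR 4.0.16 (R 4.3.3, robust fits, filterByExpr, TMM) within the libraries of each comparison, with Benjamini-Hochberg adjustment over all tested genes and a threshold of 0.05. The SE of a log2 difference was its size over the square root of F. The difference of differences used all 12 libraries. The study used the Wald test of DESeq2 (1.42.0 here), which was an alternative. The other alternatives were DESeq2 size factors, no filter, at least 10 counts in every library, thinned counts, each library left out, the mouse as a block and all libraries in 1 fit. Leaving out both libraries of control mouse 1 or of Pdap1-deficient mouse 2 was added after the data were seen. No libraries of a group were copies, since the squared differences of their counts were on average at least 7.07 times the sampling variance.

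The labels give 3 mice per genotype for both cultures and number them, and the cultures were taken as paired by these numbers. The deviations of the same mouse from its group means correlated at 0.293 to 0.622 across genes in Pdap1-deficient mice and at -0.181 to 0.341 in control mice. All 3 Pdap1-deficient mice but only 1 of 3 control mice correlated best with their own number, so the data do not show the pairing in control mice.

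The 10 genes and the lists were chosen with earlier results of these data known. Named from the lists were the up to 4 genes with the smallest adjusted p in a stimulation comparison, up to 2 in a genotype comparison, and a fixed set of common pathway genes whatever their values, of which 1 is not reported here. P-values measure the spread between mice of a group.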

Additional observations from a re-analysis of the deposited data

How the results depend on the processing

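The 10 genes gave 740 values over all comparisons and alternatives. Direction and side of the threshold held in 669, the sign turned in 50, 7 calls were lost (all Runx3 in control cells) and 14 were gained. No called value changed sign. Some turned signs belonged to estimates that were near 0 in the fits reported above. Others did not, such as the differences of differences of Smad7 (-0.32) and Runx3 (-0.27). The same held for the genotype differences of Runx3 with LPS-IL-4 (0.28) and of Smad7 with LPS-BAFF-TGFβ (-0.23). With no single library left out, the sign turned for the genotype difference with LPS-IL-4 of Smad7 (-0.018 with thinned counts). With LPS-BAFF-TGFβ it turned for that of Smad4 (-0.014), Runx1 (-0.054) and Runx3 (-0.038) with no filter and of Runx3 (-0.0083) with thinned counts. The difference of differences of Tgfbr1 was 0.014 with DESeq2, 0.0044 with its size factors, 0.0087 with the replicate block and 0.016 without Pdap1-deficient mouse 2, that of Smad3 was -0.0051 with 10 counts in every library, that of Smad7 was 0.014 with thinned counts, and that of Ski was 0.010 without Pdap1-deficient mouse 2. Without control mouse 1 it was -0.039 for Smad2, -0.034 for Smad3, 0.100 for Smad7, 0.096 for Ski and 0.14 for Runx3.

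Leaving out each library in turn gave signs of either kind for the stimulation difference in Pdap1-deficient cells of Smad4 (-0.16 to 0.0066) and Ski (-0.11 to 0.33), for the genotype difference with LPS-IL-4 of Smad7 (-0.074 to 0.16) and Runx3 (-0.15 to 0.50), and with LPS-BAFF-TGFβ of Smad2 (-0.17 to 0.043), Smad4 (-0.077 to 0.14), Smad7 (-0.38 to 0.047), Runx1 (-0.13 to 0.14) and Runx3 (-0.23 to 0.37). For the difference of differences the ranges were -0.14 to 0.13 for Tgfbr1, -0.045 to 0.18 for Smad2, -0.029 to 0.078 for Smad3, -0.25 to 0.18 for Ski and -0.51 to 0.18 for Runx3. With 1 library left out, a comparison rests on 2 against 3.

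Counts of all genes called moved more. With the replicate block 3854 genes were called between cultures in Pdap1-deficient cells in place of 1675. With LPS-IL-4 the genotype comparison called 741 genes, 1217 with DESeq2 (560 higher and 657 lower, against 421 and 320) and 1694 with no filter, and of the 10 genes 1 (Skil) and 3 (Tgfbr2, Ski and Skil). With LPS-BAFF-TGFβ it called 65, 172 with DESeq2, 257 with no filter and 133 with all 12 libraries in 1 fit. The difference of differences called 0, 6 with DESeq2, 1 with no filter and 1 with thinned counts. Leaving out each library gave 1608 to 4858 and 908 to 2235 calls between cultures in control and Pdap1-deficient cells, 69 to 1759 (0 to 2 of the 10 genes) and 19 to 116 between genotypes, and 0 to 1 for the difference of differences. Between cultures the highest count in control cells came without the deepest library. Between genotypes with LPS-IL-4, leaving out any control library gave 69 to 91 calls, and leaving out Pdap1-deficient mouse 1, 2 or 3 gave 1759, 1459 or 163. The 2 members were Tgfbr2 and Skil without Pdap1-deficient mouse 1. The cause of these shifts was not tested. Between genotypes the replicate numbers mark different mice. A block on them called 641 and 48 genes and 0 of the 10. The deviations correlated at -0.203 to 0.008 with LPS-IL-4 and -0.205 to 0.103 with LPS-BAFF-TGFβ. Only 0 and 1 of the 3 replicate numbers correlated best with their own number in these cultures. The replicate block changed no other call of the 10 genes than those of Runx1 and Runx3 given in the report.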
